A study of Homo sapiens with 18 samples.

Results

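A set of 33 lysosome and autophagy genes was followed by symbol in bulk RNA-seq counts of LX-2 cells, an established human hepatic stellate cell line. The symbols named 8 cathepsins, 9 other hydrolases and saposins, 2 lysosomal membrane proteins, 1 lysosomal channel, 2 transcription factors, 4 proton pump subunits and 7 autophagy genes. All 33 were found among the 28278 symbols of the count table, and all 33 were among the 15353 genes with enough reads to be tested. After 1 h in serum-free medium, subcultures received thrombin, the protease of blood clotting, at 1 U/mL, for 4, 24 or 48 h. Controls received the same medium with no thrombin. Each of the 6 groups had 3 libraries of poly(A)-enriched RNA, numbered 12, 13 and 14 in the labels, and every cell in the study was LX-2, so all groups shared the absence of serum. No label used here says that the 3 libraries of a group came from separate experiments, and the p-values then speak only of how these libraries vary, a spread that may be technical.

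Lysosomes are the acidic compartments in which cells break down proteins, lipids and sugars, and autophagy is the route by which a cell wraps part of its own contents in a membrane and delivers it there. The hydrolases work at low pH, which a proton pump (the V-type ATPase) maintains, and the transcription factors TFEB and TFE3 switch many of these genes on together through a short promoter sequence, the CLEAR element, when nutrients are short or the lysosome is stressed. In hepatic stellate cells, autophagy is known for breaking down lipid droplets during activation, and the cathepsins take part in turning over collagen.

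Library totals ran from 14431044 to 23270601 reads, and the 33 genes together took 0.5722% to 0.7098% of them. Of 15 markers of stellate cells, 12 had enough reads to be tested. VIM lay between 3130 and 4080 CPM (reads scaled to the size of the library) and COL1A1 between 1740 and 2800 CPM, whereas LUM had at most 10 reads, LRAT at most 6 and DCN at most 5 in any library. Of 12 hepatocyte markers, 3 were tested, and the sum was 6.36 to 10.6 CPM over the groups. There ALB had at most 2 reads and TTR and FGA none, while SERPINA1 had 59 to 122 reads. Of 12 macrophage markers, CD163 and TYROBP had at most 1 read, CD14 had 63 to 202 reads and CD68 1066 to 1982. The sum of 9 cholangiocyte markers was 146 to 290 CPM, most of it SOX9 at 126 to 270 CPM. Most of the sum over the 15 stellate markers was VIM, COL1A1 and SPARC (621 to 1230 CPM), whereas ACTA2 had 7.59 to 19.1 CPM. That sum at 4 h was 7040 to 7580 CPM in thrombin libraries against 7800 to 8070 CPM in control libraries. At 24 h it was 7960 to 8550 CPM in thrombin libraries against 6790 to 7280 CPM in control libraries. At 48 h it was 6980 to 7400 CPM in thrombin libraries against 7440 to 7690 CPM in control libraries. Of 10 endothelial markers, 8 were tested. VWF had 134 to 381 reads (8.96 to 23.7 CPM) and PECAM1 31 to 108, whereas LYVE1 was at 0 in every library. The sum of the 10 at 4 h was 23.9 to 25.9 CPM in thrombin libraries against 26.6 to 31.6 CPM in control libraries. At 24 h the groups overlapped (17.3 to 22.2 CPM with thrombin against 17.9 to 25.3 CPM in control). The sum of 19 replication-dependent histones, whose messages mostly lack a poly(A) tail, overlapped at 4 h (120 to 152 CPM with thrombin against 145 to 168 CPM in control). The highest of the 19 was H1-2, at 47.9 to 91.8 CPM. The histone sum at 24 h was 126 to 132 CPM with thrombin against 101 to 113 CPM in control. The part of these shifts in the results below was not tested. Groups that differed in both treatment and time could be close to each other. The libraries labelled thrombin at 4 h differed from those labelled control at 24 h in 11 of 15353 genes (0.0716%; 0.0195% higher and 0.0521% lower). The libraries labelled thrombin at 24 h differed from those labelled control at 4 h in 513 genes (3.34%; 2.37% higher and 0.970% lower). Every direction given here, and every difference of the thrombin effect between times, rests on the labels, and groups are named as labelled. Whether any labels were exchanged was not tested.

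The promoters of CTSL, TPP1, NEU1 and CTSF, whose levels moved, and of MCOLN1 are shown here because TFEB and TFE3 act through CACGTG, the core of the CLEAR element. RefSeq's promoter table for GRCh38.p14 gave 250 bases before to 50 bases after the start of 25 of the 33 genes, in 31 entries of 35116. CACGTG reads the same on both strands. It is printed in capitals, and the sequences run 5′ to 3′ on the gene's strand. CTSL (chr9:87725869-87726168, plus strand) and TPP1 (chr11:6619373-6619672, minus strand) had no CACGTG in this window. NEU1 (chr6:31862772-31863071, minus strand) had 1 match, starting 126 bases before the start site. CTSF (chr11:66568557-66568856, minus strand) had 2, at 123 and 51 bases before it. MCOLN1 (chr19:7522374-7522673, plus strand), shown as a gene with matches close to its start, had 2, at 41 and 14 bases before it.

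CTSL: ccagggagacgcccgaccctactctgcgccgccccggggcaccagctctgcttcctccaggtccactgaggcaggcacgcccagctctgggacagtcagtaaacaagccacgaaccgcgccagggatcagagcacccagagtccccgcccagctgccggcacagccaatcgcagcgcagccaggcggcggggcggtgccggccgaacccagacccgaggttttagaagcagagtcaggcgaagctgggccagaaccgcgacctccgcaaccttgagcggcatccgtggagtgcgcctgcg
TPP1: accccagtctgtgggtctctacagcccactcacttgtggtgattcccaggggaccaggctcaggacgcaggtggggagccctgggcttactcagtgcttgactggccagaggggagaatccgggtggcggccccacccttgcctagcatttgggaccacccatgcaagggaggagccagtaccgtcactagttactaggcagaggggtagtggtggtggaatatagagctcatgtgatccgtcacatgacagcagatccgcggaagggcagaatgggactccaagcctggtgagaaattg
NEU1: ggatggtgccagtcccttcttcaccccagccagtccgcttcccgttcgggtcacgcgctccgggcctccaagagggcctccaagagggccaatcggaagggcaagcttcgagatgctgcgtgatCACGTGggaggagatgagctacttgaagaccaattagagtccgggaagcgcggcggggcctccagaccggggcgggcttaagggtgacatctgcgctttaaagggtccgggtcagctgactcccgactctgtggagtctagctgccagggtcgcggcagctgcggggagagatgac
CTSF: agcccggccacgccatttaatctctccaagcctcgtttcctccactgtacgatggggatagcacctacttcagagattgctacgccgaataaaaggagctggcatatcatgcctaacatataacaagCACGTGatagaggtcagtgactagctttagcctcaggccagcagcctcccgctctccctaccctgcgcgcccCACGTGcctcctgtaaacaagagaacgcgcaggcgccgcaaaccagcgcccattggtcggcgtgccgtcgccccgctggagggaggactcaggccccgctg
MCOLN1: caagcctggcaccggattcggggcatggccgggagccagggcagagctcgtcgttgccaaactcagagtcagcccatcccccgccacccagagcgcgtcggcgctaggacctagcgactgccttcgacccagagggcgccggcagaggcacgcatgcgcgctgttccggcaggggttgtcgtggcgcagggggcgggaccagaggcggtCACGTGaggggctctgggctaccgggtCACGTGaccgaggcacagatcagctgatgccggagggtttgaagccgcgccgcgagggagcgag

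CACGTG was found for 7 of the 25 genes (28%), namely ATP6V0D1, CTSA, CTSD, CTSF, LAMP1, MCOLN1 and NEU1. That was 22.6% of their 31 entries, against 7.26% of all 35116 entries and 8.34% of the entries of protein-coding genes. A match is a description of the sequence and not a binding site. The genes with a match were 3 that passed the test in a thrombin comparison (NEU1, CTSF and CTSD) and 4 that did not pass the test at any time (CTSA, LAMP1, MCOLN1 and ATP6V0D1). CTSL and TPP1, with the largest changes among those shown, had no exact match. Sequences that differ from CACGTG by a base were not searched for. CTSB, CTSS and HEXA, which also passed in a thrombin comparison, had no promoter entry.

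Levels were set against the length of all exons of a gene, merged over its transcripts. By that measure PSAP was the most abundant of the 33, with a median of 443 CPM per kilobase over the 18 libraries. It was followed by CTSD at 118, CTSZ at 103, SQSTM1 at 97.3 and CTSL at 67.3 CPM per kilobase. The order below PSAP depends on the length used. The merged exons of SQSTM1 have 7654 bases and its longest coding transcript 2986, whereas CTSL has 2366 and 2177. CTSK at 1.19, TFEB at 1.12 and CTSS at 1.07 CPM per kilobase were the lowest, and their ranges over the libraries overlapped. The ranges of CTSD and CTSZ overlapped too, and so did those of CTSL, TPP1, LAMP1 and CTSA, whereas PSAP stood above all others in every library. The collagen-degrading protease CTSK and the antigen-processing protease CTSS were thus expressed near the bottom of the set, with 20 to 50 and 32 to 167 reads per library.

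With thrombin at 4 h, 6 of the 33 genes were higher (18.2%, against 6.29% of all genes tested) and 2 were lower (6.06%, against 5.52%) at an adjusted p under 0.05. The higher genes were CTSS, TPP1, NEU1, TFEB, GABARAPL1 and ATG9A, and the lower ones were CTSL and CTSB. At 24 h 1 gene was higher (3.03%, against 9.05% of all genes), namely CTSL. Another 9 were lower (27.3%, against 8.54%), namely CTSS, TPP1, NEU1, CTSF, WIPI1, ATP6AP1, SQSTM1, CTSD and HEXA. The median log2 fold change of the 33 genes was 0.05 at 4 h and -0.06 at 24 h, against -0.0008346 and 0.001706 over all genes tested. At 4 h, 10 were higher and 4 lower without thrombin library 12, and 3 were higher without thrombin library 13. At 24 h, 5 were lower without thrombin library 12 or 14. Over all genes, leaving out 1 library gave 425 to 1283 higher and 415 to 1114 lower at 4 h. It gave 785 to 1206 lower at 24 h. In all, 14 genes passed in at least 1 comparison and 19 in none. Of all 15353 genes, 1813 were called at 4 h (11.8%), 2700 at 24 h (17.6%), 961 at both times and 0 at 48 h. In these bulk samples, less RNA per cell and fewer cells of a kind cannot be told apart.

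**Figure D1:**
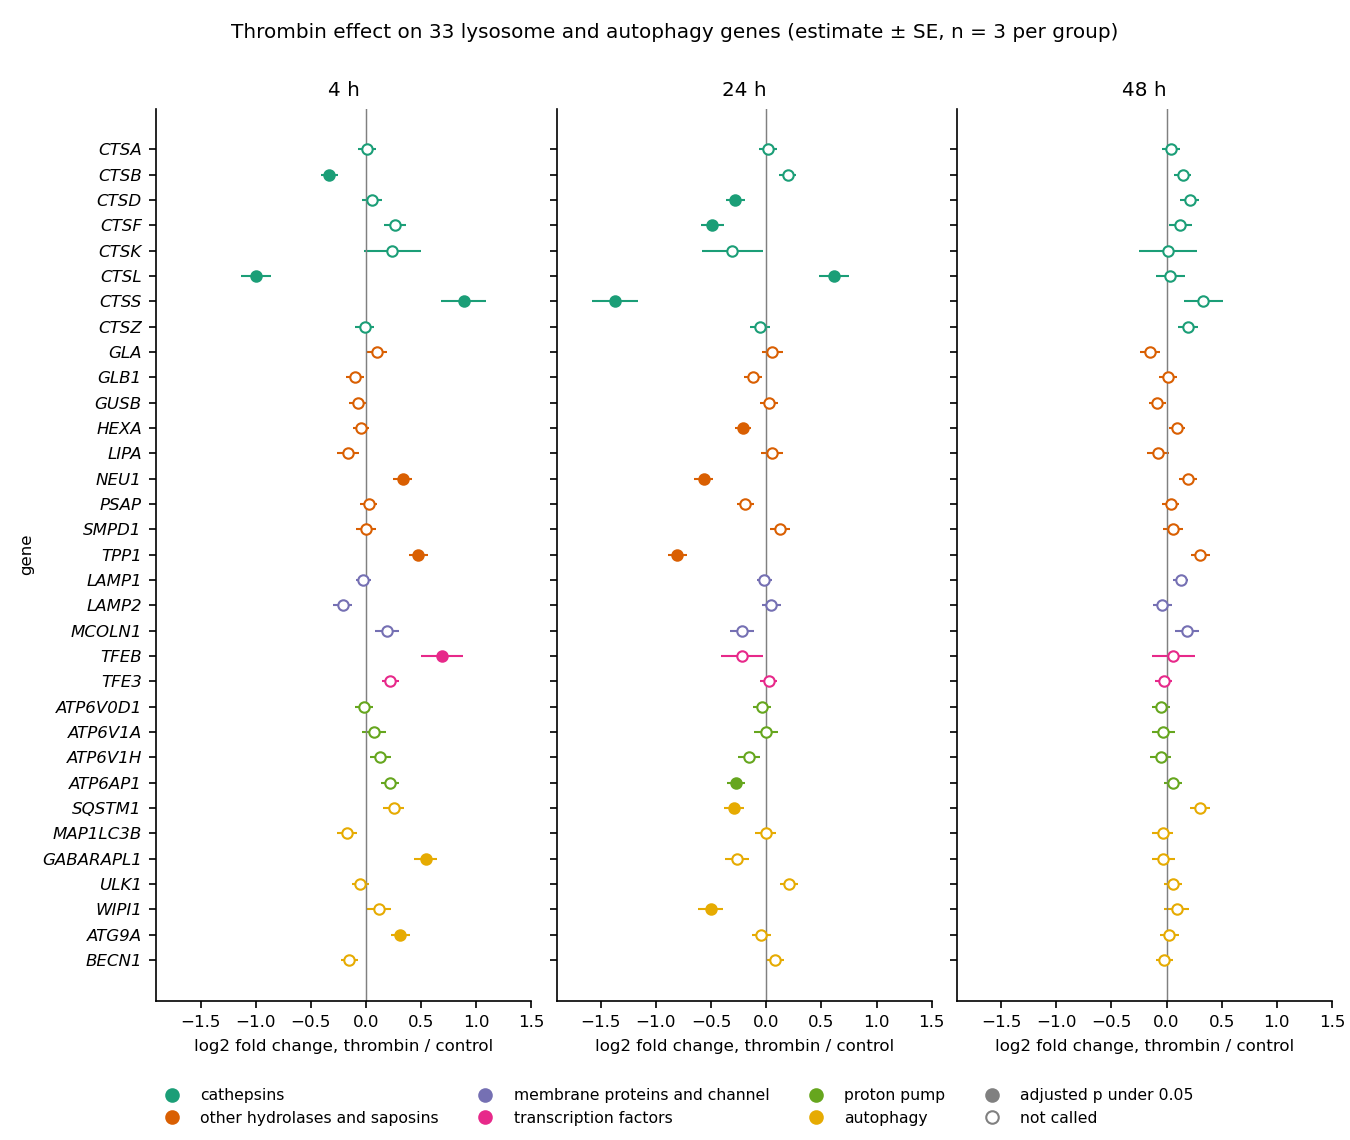
Log2 fold change of thrombin over control (x axis) for each of the 33 genes (y axis, coloured by role) at 4, 24 and 48 h, with bars for the standard error and filled points for an adjusted p under 0.05. CTSL lies left of 0 at 4 h and right of it at 24 h, while CTSS, TPP1 and NEU1 do the reverse, and no point is filled at 48 h.

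Among the cathepsins, the proteases of the lysosome, CTSL changed in one direction and CTSS in the other at both early times. CTSL, a cysteine endopeptidase (chr9:87726119-87731469 in GRCh38.p14), had 132, 156 and 125 CPM in thrombin libraries 12, 13 and 14 at 4 h, against 239, 287 and 299.5 CPM in control libraries in the same order. The thrombin libraries were all below the controls, with a log2 fold change of -0.999 ± 0.135 (SE; adjusted p = 5.34e-05). At 24 h CTSL had 179, 218 and 285 CPM with thrombin, against 132, 149.5 and 164 CPM in control. The order was now the opposite and the groups again did not overlap, although the thrombin libraries spread widely (0.61 ± 0.135, adjusted p = 0.00254). At 48 h the groups overlapped, at 135, 150.3 and 164 CPM with thrombin and 139.9, 136 and 162 CPM in control (0.04 ± 0.134, adjusted p = 0.971).

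CTSS, a cysteine protease best known from antigen-presenting cells (chr1:150730188-150765778), was a low gene that moved against CTSL. It had 4.85, 4.24 and 4.09 CPM with thrombin at 4 h, against 2.73, 2.21 and 2.23 CPM in control (0.89 ± 0.202, adjusted p = 0.00527). These came from 104, 84 and 77 reads with thrombin and 46, 50 and 32 reads in control. At 24 h it had 2.62, 2.24 and 1.98 CPM with thrombin, against 6.28, 6.01 and 5.35 CPM in control (-1.37 ± 0.207, adjusted p = 3.19e-05). Each time the groups stood apart, and thrombin libraries were on the high side at 4 h and on the low side at 24 h. At 48 h CTSS had 6.05, 8.54 and 5.34 CPM with thrombin and 5.72, 4.22 and 6.05 CPM in control, with overlapping libraries (0.33 ± 0.177, adjusted p = 0.712). Of 12 macrophage markers, 6 were tested and none changed at 4 h or 24 h by edgeR (1 of the 6 at an unadjusted p under 0.05 at each time), while VSIG4 was at 0 in every library. Their summed level was 75.6 to 95.3 CPM with thrombin against 81.4 to 104 CPM in control at 4 h. At 24 h it was 83.9 to 101 CPM with thrombin against 80.4 to 90.3 CPM in control. Most of it was CD68, itself a lysosomal protein.

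CTSB, a cysteine protease found in most cell types, fell at 4 h together with CTSL. Its libraries had 127, 139 and 138 CPM with thrombin, against 160.1, 179 and 169 CPM in control, with no overlap (-0.33 ± 0.0744, adjusted p = 0.00459). At 24 h CTSB had 169, 194 and 171 CPM with thrombin, against 159.5, 152 and 155 CPM in control. Here the thrombin libraries were the higher ones but the test was not passed (0.19 ± 0.0745, adjusted p = 0.0741). It was called by DESeq2 (0.19, adjusted p = 0.0343) and with all libraries numbered 12 left out (0.25), with an adjusted p of 0.0343 to 0.292 over 12 alternatives.

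CTSF, a cysteine protease whose propeptide holds a cystatin-like domain (chr11:66563464-66568606), fell at 24 h. It had 50.9, 53.5 and 47.0 CPM with thrombin, against 75.3, 70.5 and 66.7 CPM in control, so that all thrombin libraries lay below all controls (-0.49 ± 0.105, adjusted p = 0.00168). At 4 h its libraries overlapped, with 58.3, 65.2 and 70.1 CPM with thrombin and 62.7, 50.9 and 47.6 CPM in control (0.26 ± 0.104, adjusted p = 0.102). That difference passed the test once thrombin library 12 (log2 fold change 0.33) or control library 12 (0.39) was left out. Over 12 alternatives its adjusted p was 0.00123 to 0.359.

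CTSD, the main aspartic protease of the lysosome, was lower at 24 h, with 332, 387 and 348 CPM with thrombin against 461, 437 and 398 CPM in control (-0.28 ± 0.0887, adjusted p = 0.029). The groups did not overlap, but the call was lost when thrombin library 12 (log2 fold change -0.23) or 14 (-0.27), or control library 12 (-0.23) or 13 (-0.27), was left out. Over 12 alternatives the adjusted p was 0.0122 to 0.146. The level of CTSD is uncertain as well, because 60.6% of the 50-base stretches of its transcript also occur in the overlapping gene AC068580.4.

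The other 3 cathepsins did not pass the test at any time. CTSA, which also shields the sialidase NEU1 and beta-galactosidase from degradation, averaged 359.7 ± 37.6 CPM with thrombin and 356 ± 15.5 CPM in control at 4 h (SD, n = 3 each). At 24 h it averaged 363 ± 38.4 CPM with thrombin and 359.9 ± 5.50 CPM in control. CTSZ, a carboxypeptidase, ranged from 179.8 to 242 CPM over all 18 libraries. CTSK had 1.35 to 2.84 CPM, too few reads for a narrow estimate, and its log2 fold changes were 0.24 ± 0.258 at 4 h and -0.31 ± 0.277 at 24 h. Of the 8 cathepsins, 3 passed at 4 h (CTSS higher, CTSB and CTSL lower), against 11.8% of all genes in either direction, and 4 at 24 h (CTSL higher, CTSD, CTSF and CTSS lower), against 17.6%.

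**Figure D2:**
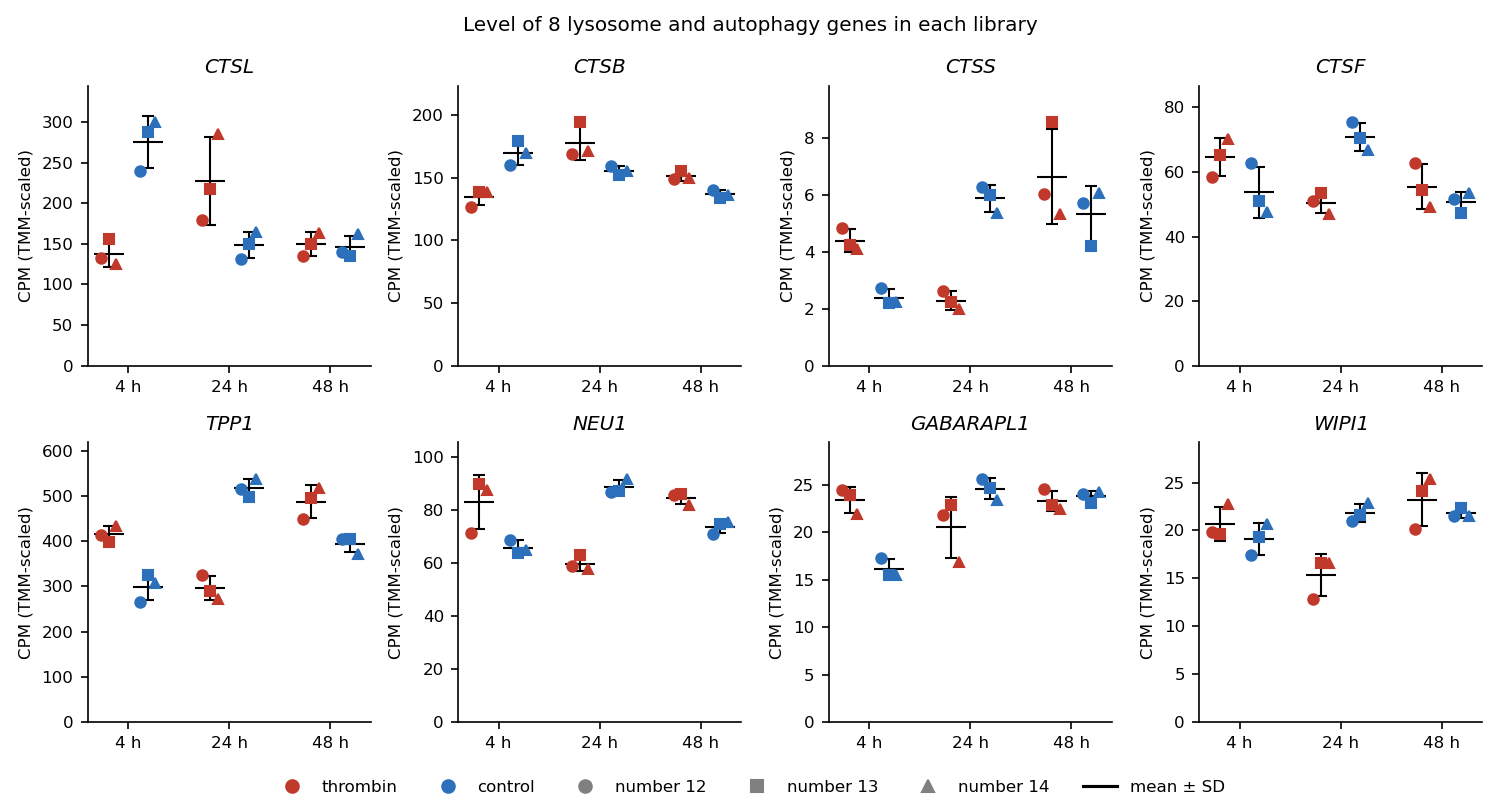
TMM-scaled CPM (y axis, from 0) of 8 genes in every library at 4, 24 and 48 h, with thrombin in red to the left of control in blue, symbols for the library number and black bars for the mean and SD of 3 libraries. Thrombin libraries of CTSL lie at 125 to 156 CPM at 4 h and 179 to 285 CPM at 24 h, and those of TPP1 at 399 to 434 CPM and 272 to 325 CPM.

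Of the other hydrolases and saposins, TPP1 and NEU1 were higher at 4 h and lower at 24 h, HEXA was lower at 24 h, and the remaining 6 of 9 did not pass the test. TPP1, a serine protease that removes tripeptides and whose loss causes a childhood form of neuronal ceroid lipofuscinosis (chr11:6612768-6619422), had 415, 399 and 434 CPM with thrombin at 4 h, against 266, 326 and 307 CPM in control (0.47 ± 0.0854, adjusted p = 0.000651). At 24 h it had 325, 291 and 272 CPM with thrombin, against 516, 498 and 538 CPM in control (-0.81 ± 0.0858, adjusted p = 1.7e-07), the smallest adjusted p among the 33 genes. The libraries of the 2 groups did not overlap at either time. At 48 h they did not overlap either, at 448, 497 and 518 CPM with thrombin and 404, 405 and 373 CPM in control, yet the test was not passed (0.31 ± 0.0851, adjusted p = 0.388). In the transcript of TPP1, 17.5% of 50-base stretches also occur in other genes, chiefly the overlapping AC091564.7.

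NEU1, the sialidase that trims sialic acid from glycoproteins (chr6:31857659-31862821), followed the same order. It had 71.0, 89.8 and 87.4 CPM with thrombin at 4 h, against 68.7, 63.5 and 64.9 CPM in control (0.33 ± 0.084, adjusted p = 0.0109), and the groups stood just apart. This call was lost without thrombin library 13 (log2 fold change 0.27) or 14 (0.29), without control library 13 (0.31), and with the 4 h libraries fitted alone (0.32). The adjusted p was 0.000292 to 0.0761 over 12 alternatives. At 24 h NEU1 had 58.6, 62.8 and 57.5 CPM with thrombin, against 86.7, 86.9 and 91.7 CPM in control (-0.57 ± 0.0849, adjusted p = 2.75e-05), a clear separation that no alternative ended. At 48 h its log2 fold change was 0.20 ± 0.0838 (adjusted p = 0.64).

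HEXA, the alpha subunit of beta-hexosaminidase, whose loss causes Tay-Sachs disease, had 119.6, 120.4 and 107 CPM with thrombin at 24 h, against 139, 124 and 138 CPM in control. The groups lay close without overlapping (-0.21 ± 0.0743, adjusted p = 0.0486). The call was lost without thrombin library 12 (-0.24), 13 (-0.24) or 14 (-0.16), without control library 12 (-0.18) or 14 (-0.18), and in 5 other settings. In all, 2 of 12 alternatives kept it (adjusted p 0.0155 to 0.225). In the transcript of HEXA, 12.1% of 50-base stretches also occur in other genes, chiefly the overlapping AC009690.1.

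The hydrolases and the saposin precursor that did not pass showed small estimates. PSAP, which is cut into the saposins that help lipid-degrading enzymes, had 1433, 1467 and 1420.0 CPM with thrombin at 24 h and 1721, 1660.0 and 1553 CPM in control (-0.19 ± 0.0767, adjusted p = 0.0874). With DESeq2 this difference was called (-0.19, adjusted p = 0.042), and over 12 alternatives the adjusted p was 0.042 to 0.282. GLA (alpha-galactosidase A), GLB1 (beta-galactosidase), GUSB (beta-glucuronidase), SMPD1 (acid sphingomyelinase) and LIPA (acid lipase) had log2 fold changes of 0.10, -0.10, -0.07, -0.00 and -0.16 at 4 h. In the same order they had 0.06, -0.12, 0.03, 0.13 and 0.05 at 24 h. LIPA was called lower at 4 h once thrombin library 12 was left out (-0.30; adjusted p 0.0149 to 0.898 over 12 alternatives).

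The membrane proteins and the channel did not pass the test at any time. LAMP1, the most abundant glycoprotein of the lysosomal membrane, was among the steadiest of the 33, at 316 to 374 CPM over all 18 libraries. Its log2 fold changes were -0.02 ± 0.0687 at 4 h and -0.02 ± 0.0688 at 24 h. LAMP2, needed for autophagosomes to fuse with lysosomes, had 196, 179 and 159 CPM with thrombin at 4 h and 183, 218 and 218 CPM in control (-0.21 ± 0.0878, adjusted p = 0.118). It was called lower once thrombin library 12 (-0.29) or control library 12 (-0.29) was left out, with an adjusted p of 0.00188 to 0.437 over 12 alternatives. MCOLN1, the calcium channel through which the lysosome signals to TFEB, had log2 fold changes of 0.19 ± 0.108 at 4 h (adjusted p = 0.26) and -0.22 ± 0.11 at 24 h (adjusted p = 0.181). Without thrombin library 12 its difference at 4 h was called (0.32; adjusted p 0.0139 to 0.749 over 12 alternatives).

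TFEB, the transcription factor for lysosomal genes, was higher with thrombin at 4 h, whereas its relative TFE3 did not pass. TFEB had 6.95, 8.83 and 7.18 CPM with thrombin, against 4.68, 5.65 and 3.69 CPM in control (0.69 ± 0.19, adjusted p = 0.019). Those levels came from 149, 175 and 135 reads with thrombin and 79, 128 and 53 reads in control. The groups stood apart, but the call was lost without thrombin library 13 (log2 fold change 0.58) or control library 14 (0.56), with an adjusted p of 0.00197 to 0.102 over 12 alternatives. At 24 h TFEB had 6.79, 6.66 and 4.57 CPM with thrombin and 8.15, 7.19 and 5.59 CPM in control, with overlap (-0.22 ± 0.194, adjusted p = 0.472). TFE3, expressed at 190.1 to 258 CPM, had a log2 fold change of 0.22 ± 0.077 at 4 h (adjusted p = 0.0651). It passed without thrombin library 12 (0.29), without control library 14 (0.28) and with DESeq2 (0.22), and its adjusted p was 0.0112 to 0.274 over 12 alternatives. Another relative, MITF, had -0.03 ± 0.129 at 4 h and -0.00 ± 0.132 at 24 h. These are levels of the messages, and the activity of these factors, which depends on their entry into the nucleus, was not measured.

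Among the proton pump genes, ATP6AP1 was lower at 24 h, and the 3 core subunits did not pass the test at any time. ATP6AP1, an accessory protein needed to assemble the pump, had 137, 154 and 129 CPM with thrombin at 24 h, against 176, 166 and 164 CPM in control (-0.27 ± 0.0816, adjusted p = 0.0219). All thrombin libraries were below all controls, but leaving out thrombin library 12 (-0.26) or 14 (-0.22), or control library 12 (-0.24) or 13 (-0.28), ended the call. Over 12 alternatives its adjusted p was 0.00806 to 0.124. At 4 h its groups were apart in the other direction, at 155, 158 and 169 CPM with thrombin and 147, 136 and 132 CPM in control, without passing (0.22 ± 0.0813, adjusted p = 0.0843). DESeq2 called it (0.22, adjusted p = 0.0448), as did the fit with all libraries numbered 12 left out (0.29), and over 12 alternatives the adjusted p was 0.0197 to 0.282. ATP6V0D1 of the membrane sector, the catalytic subunit ATP6V1A and the regulatory subunit ATP6V1H had log2 fold changes of -0.02, 0.07 and 0.13 at 4 h. At 24 h they had -0.04, -0.00 and -0.15.

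Of the 7 autophagy genes, GABARAPL1 and ATG9A were higher at 4 h, and WIPI1 and SQSTM1 were lower at 24 h. GABARAPL1, one of the small ubiquitin-like proteins that are coupled to lipid on the growing autophagosome, had 24.5, 23.9 and 21.9 CPM with thrombin at 4 h, against 17.3, 15.5 and 15.5 CPM in control, with a wide gap between the groups (0.54 ± 0.106, adjusted p = 0.00142). At 24 h it had 21.8, 22.9 and 16.9 CPM with thrombin and 25.7, 24.7 and 23.4 CPM in control, the thrombin libraries being lower without passing (-0.26 ± 0.106, adjusted p = 0.0868). The difference at 24 h passed once thrombin library 13 was left out (-0.35; adjusted p 0.0398 to 0.442 over 12 alternatives). Of its relatives, GABARAPL2 did not pass at 4 h or 24 h (0.19 ± 0.0986 and -0.07 ± 0.0994), and MAP1LC3A did not either (-0.04 ± 0.137 and -0.18 ± 0.138). GABARAP fell at 24 h (-0.30 ± 0.0919, adjusted p = 0.0259), and at 4 h it had 0.05 ± 0.0912 (adjusted p = 0.791). MAP1LC3B, the member of this family most used as an autophagosome marker, had 30.9, 29.9 and 26.6 CPM with thrombin at 4 h and 33.1, 32.8 and 32.7 CPM in control (-0.17 ± 0.0925, adjusted p = 0.237), and -0.00 ± 0.094 at 24 h. In its transcript 10% of 50-base stretches also occur in MAP1LC3B2.

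ATG9A, the lipid scramblase in the vesicles that seed autophagosomes, had 196, 216 and 216 CPM with thrombin at 4 h, against 169, 169 and 167 CPM in control (0.31 ± 0.0835, adjusted p = 0.0159). The control libraries were tightly grouped and below all thrombin libraries, yet the call was lost without thrombin library 13 (0.29) or 14 (0.29), without control library 14 (0.31) and with the 4 h libraries alone (0.30). Over 12 alternatives the adjusted p was 0.00325 to 0.0696. At 24 h its libraries overlapped (-0.04 ± 0.0836). The level of ATG9A is uncertain, since 44.8% of the 50-base stretches of its transcript also occur in the overlapping gene AC068946.2.

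WIPI1, which binds the lipid mark of the forming autophagosome, had 12.8, 16.6 and 16.6 CPM with thrombin at 24 h, against 21.0, 21.6 and 22.9 CPM in control (-0.50 ± 0.116, adjusted p = 0.00297). The thrombin libraries were all lower, and no alternative ended the call. At 4 h the groups overlapped, at 19.8, 19.6 and 22.8 CPM with thrombin and 17.4, 19.3 and 20.7 CPM in control (0.12 ± 0.112). SQSTM1, the receptor that carries ubiquitin-tagged cargo into autophagosomes and is itself degraded there, had 732, 744 and 746 CPM with thrombin at 24 h, against 872, 888 and 964 CPM in control, also without overlap (-0.29 ± 0.0915, adjusted p = 0.026). That call was lost without thrombin library 12 (-0.29), 13 (-0.30) or 14 (-0.30) and without control library 13 (-0.31) or 14 (-0.24). Its adjusted p was 0.00508 to 0.109 over 12 alternatives. SQSTM1 had 0.25 ± 0.0915 at 4 h (adjusted p = 0.0761), which passed without thrombin library 12 (0.34), with DESeq2 (0.26) and with no filter on low counts (0.24; adjusted p 0.00475 to 0.443 over 12 alternatives). Exons of MRNIP on the other strand cover 20.7% of the exon bases of SQSTM1, and those of ARSG cover 24.3% of those of WIPI1. Since the strand setting of the counting is not given, reads of such partners cannot be told apart.

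The kinase ULK1, which starts autophagy, and BECN1, a subunit of the lipid kinase complex that follows it, did not pass the test at any time. ULK1 had 244, 277 and 258 CPM with thrombin at 24 h and 225, 224 and 226 CPM in control, higher in all 3 thrombin libraries (0.21 ± 0.0797, adjusted p = 0.0748). It was called by DESeq2 (0.21, adjusted p = 0.0432), with 0.0419 to 0.235 over 12 alternatives. BECN1 had log2 fold changes of -0.15 ± 0.0775 at 4 h and 0.08 ± 0.0783 at 24 h, within 56.3 to 69.5 CPM over all libraries.

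At 48 h none of the 33 genes passed the test by edgeR, and none of the 15353 genes tested did (0%). At an unadjusted p under 0.05 there were 5 of the 33 genes and 1110 of all genes, and DESeq2 called 0 of the 33 genes and 13 higher and 7 lower among all genes. Estimates of the 33 genes ran from -0.15 (GLA) to 0.33 (CTSS) on the log2 scale, with a median of 0.04 against 0.008872 over all genes. SQSTM1 had 851, 856 and 883 CPM with thrombin and 667, 634 and 794 CPM in control, without overlap (0.31 ± 0.0915, adjusted p = 0.428). Counting genes whose thrombin and control libraries did not overlap gave 12 of 33 at 4 h (36.4%, against 25.8% of all genes), 16 at 24 h (48.5%, against 34.1%) and 9 at 48 h (27.3%, against 14.2%).

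**Figure D3:**
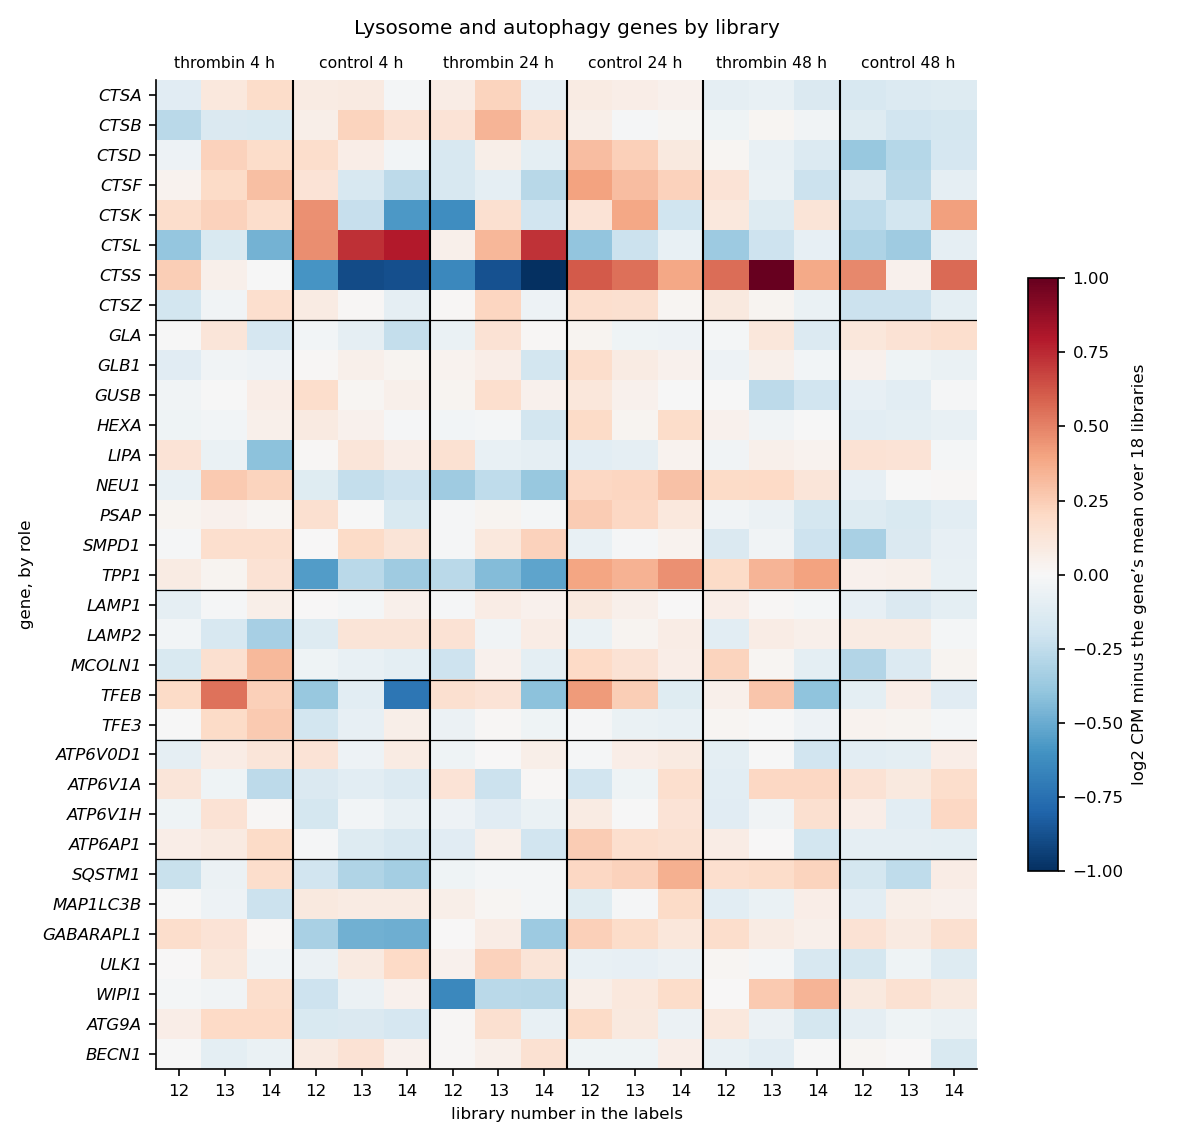
Log2 CPM of each gene minus its mean over the 18 libraries (colour, limited to 1 in either direction, which 2 cells exceed), with genes by role down the page and libraries by group across it. CTSL and CTSS lie on opposite sides of their means in control at 4 h and in both groups at 24 h, some cells only faintly. In thrombin at 4 h CTSS lies close to its mean in libraries 13 and 14. TPP1 and NEU1 are blue where CTSL is red, in thrombin at 24 h and control at 4 h.

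The effects at 4 h and 24 h, which come from separate libraries, ran in opposite directions in the 4 genes called at both times, CTSL, CTSS, NEU1 and TPP1. Among all genes tested, 948 of the 961 called at both times did so as well. The estimates had opposite signs for 24 of the 33 genes and for 10676 of all 15353. The signed difference between the log2 effects was tested directly. An effect that exceeds another is thus higher with its sign counted, and not always larger in size. The effect at 24 h exceeded that at 4 h for 2 of the 33 genes (against 13.6% of all genes) and was below it for 12 (against 14.3%). The effect at 48 h exceeded that at 24 h for 7 (against 7.16%) and was below it for 1 (against 6.68%), CTSL. The effect at 24 h exceeded that at 4 h for 4 genes without thrombin or control library 12 of 4 h. Over all genes, leaving out 1 library gave 1670 to 2306 such genes. The CTSL call at 48 h against 24 h was lost without thrombin library 13 or 14 or control library 12 or 13 of 24 h, and without thrombin library 12 or 13 or control library 12 or 14 of 48 h. CTSL had the largest positive difference between 24 h and 4 h (1.61 ± 0.19 on the log2 scale, adjusted p = 1.55e-06) and CTSS the largest negative one (-2.25 ± 0.289, adjusted p = 2.09e-06).

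**Figure D4:**
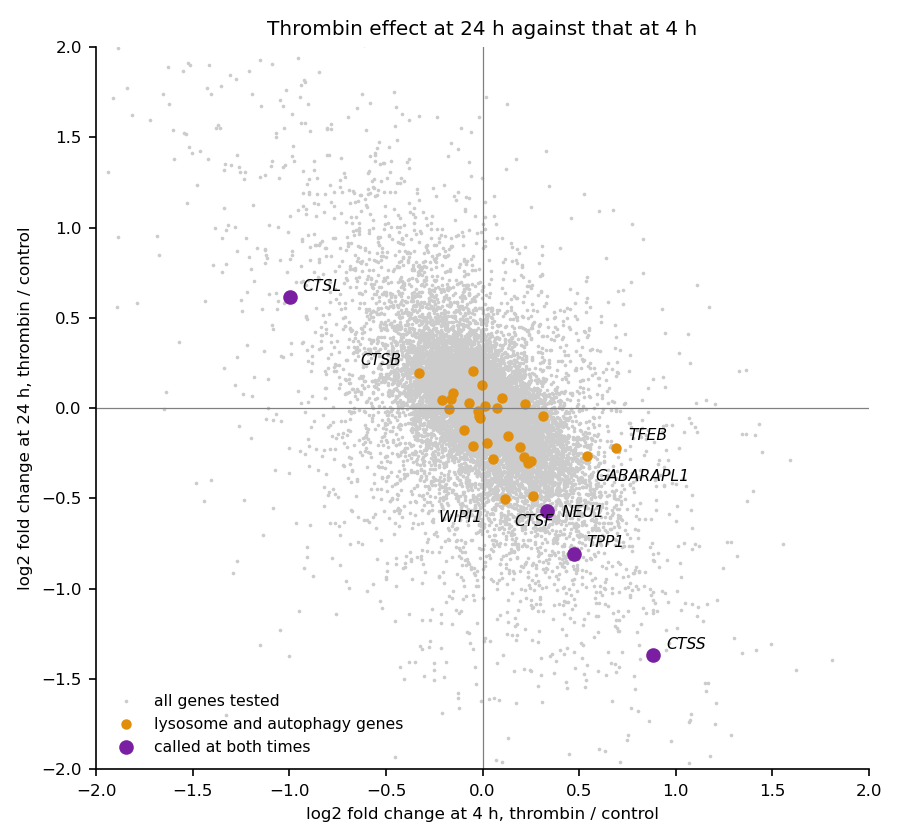
Log2 fold change of thrombin over control at 24 h (y axis) against that at 4 h (x axis) for all 15353 genes tested (grey; 62 fall outside the axes, which end at 2 in each direction), the 33 lysosome and autophagy genes (orange) and those called at both times (purple). CTSL sits at the upper left, and CTSS, TPP1 and NEU1 at the lower right, along the grey cloud.

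Within control cultures, 7 of the 33 genes were higher at 24 h than at 4 h (against 8.10% of all genes) and 1 was lower (against 7.15%). TPP1 had 518 ± 20.4 CPM in control at 24 h and 299.7 ± 30.3 CPM in control at 4 h (0.79 ± 0.0857, adjusted p = 7.61e-07). CTSS, SQSTM1, GABARAPL1, NEU1, CTSF and ATP6AP1 were higher with it. CTSL was the lower gene, at 149 ± 16.3 CPM in control at 24 h and 275 ± 31.8 CPM in control at 4 h (-0.89 ± 0.135, adjusted p = 0.000106). In control at 48 h against 24 h, CTSD, CTSF, PSAP, TPP1, ATP6AP1 and SQSTM1 were lower (6 of 33, against 3.43% of all genes). None was higher by edgeR or DESeq2 (against 2.69%, or 6.12% in either direction), with 13 of 33 genes at an unadjusted p under 0.05. The count of lower genes was 3 without control library 12 or 13 of 24 h or 12 of 48 h and 2 without 13 of 48 h, and CTSD and TPP1 were lower each time 1 library of these groups was left out. Over all genes, 118 to 560 were lower when 1 library was left out.

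With thrombin, CTSB and CTSL were higher at 24 h than at 4 h (2 of 33, against 7.85% of all genes), and CTSF, CTSS, NEU1, TPP1 and WIPI1 were lower (5, against 7.28%). TPP1 had 296 ± 27.2 CPM at 24 h and 416 ± 17.9 CPM at 4 h (-0.49 ± 0.0854, adjusted p = 0.000222). CTSS, NEU1, TPP1 and WIPI1 were higher again at 48 h than at 24 h (4, against 4.31%), and CTSL and CTSB were lower (2, against 5.41%, or 9.72% in either direction). The call of CTSB was lost without thrombin library 13 or 14 of 24 h and without any 1 of the thrombin libraries of 48 h. CTSS had 6.64 ± 1.68 CPM at 48 h and 2.28 ± 0.326 CPM at 24 h (1.56 ± 0.203, adjusted p = 6.93e-06). The count of genes lower at 24 h than at 4 h was 3 without thrombin library 12 of 24 h or 14 of 4 h, both times without CTSF and WIPI1, and 8 without thrombin library 12 of 4 h. Over all genes, 634 to 1538 were lower when 1 library was left out.

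No difference was called in these genes between groups that crossed treatment and time. None of the 33 differed between thrombin at 4 h and control at 24 h by edgeR or DESeq2, against 0.0716% of all genes called by edgeR. There 7 of the 33 were at an unadjusted p under 0.05, against 857 of all 15353. None differed between thrombin at 24 h and control at 4 h by either tool, against 3.34% of all genes called by edgeR. There 4 of the 33 were at an unadjusted p under 0.05, against 2350 of all 15353. CTSL averaged 138 ± 16.3 CPM in thrombin libraries at 4 h and 149 ± 16.3 CPM in control libraries at 24 h. For TPP1 these means were 416 ± 17.9 CPM and 517.5 ± 20.4 CPM, and its libraries did not overlap. The same held for 8 of the 33 genes in all (24.2%), CTSS, CTSB and SQSTM1 among them. The share over all genes was not counted, so this number is not a result about the set. CTSL averaged 227 ± 53.8 CPM in thrombin libraries at 24 h and 275 ± 31.8 CPM in control libraries at 4 h. Without thrombin library 14 of 24 h, CTSL and GABARAPL1 were called in the last of these comparisons, 1 lower and 1 higher.

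Genes of the same pathways outside the set were followed in lists, whose counts stand against 6.29% of all genes higher and 5.52% lower at 4 h, and 9.05% higher and 8.54% lower at 24 h. Further lysosomal hydrolases had 2 of 38 higher and 2 lower at 4 h, and 0 higher and 9 lower at 24 h, with median log2 fold changes of 0.08 and -0.11. The shares at 4 h were close to those of all genes. NAGLU and SGSH, which both degrade heparan sulfate, fell at 24 h (-0.48 ± 0.0927, adjusted p = 0.000604, and -0.51 ± 0.107, adjusted p = 0.00138). So did DNASE2, which degrades DNA at low pH (-0.45 ± 0.0961, adjusted p = 0.00173). None of these 3 passed at 4 h, where their estimates were 0.13, 0.22 and 0.19.

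Further membrane and transport proteins had 3 of 27 higher and 0 lower at 4 h, and 0 higher and 7 lower at 24 h. The sialic acid exporter SLC17A5 averaged 24.6 ± 1.47 CPM with thrombin and 16.5 ± 1.94 CPM in control at 4 h (0.58 ± 0.136, adjusted p = 0.0063). It averaged 18.7 ± 1.77 CPM with thrombin and 29.2 ± 6.98 CPM in control at 24 h (-0.65 ± 0.136, adjusted p = 0.00134). The cystine exporter CTNS (-0.40 ± 0.0845, adjusted p = 0.00142), the tetraspanin CD63 (-0.33 ± 0.0747, adjusted p = 0.00254) and TMEM192 (-0.43 ± 0.11, adjusted p = 0.00675) fell at 24 h. Of 20 further proton pump subunits, ATP6V0B was higher at 4 h (0.39 ± 0.0883, adjusted p = 0.00447) and lower at 24 h (-0.28 ± 0.0887, adjusted p = 0.0279), and ATP6V1F was lower at 24 h (-0.49 ± 0.132, adjusted p = 0.0116). Of 15 genes of mannose 6-phosphate sorting, the route that brings hydrolases to the lysosome, GGA2 (-0.22 ± 0.0721, adjusted p = 0.0338) and GNPTG (-0.34 ± 0.12, adjusted p = 0.0493) were lower at 24 h and none was called at 4 h by edgeR (3 at an unadjusted p under 0.05). The receptor IGF2R of that route did not pass (-0.27 ± 0.0983, adjusted p = 0.0551).

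Further autophagy machinery had 1 of 39 higher and 1 lower at 4 h, and 3 higher and 3 lower at 24 h, each a share below that of all genes. VMP1, a scramblase of the endoplasmic reticulum, rose at 24 h (0.36 ± 0.0987, adjusted p = 0.0124), ULK3 fell (-0.34 ± 0.102, adjusted p = 0.0213), and TMEM41B, which works beside VMP1, fell at 4 h (-0.35 ± 0.101, adjusted p = 0.0254). Autophagy receptors had 1 of 18 higher at 4 h and 4 lower at 24 h, with no call in the other direction. RETREG1, the receptor for the endoplasmic reticulum, was the 1 higher at 4 h (0.34 ± 0.0954, adjusted p = 0.0209) and fell at 24 h (-0.41 ± 0.096, adjusted p = 0.00362). With it fell BNIP3 (-0.37 ± 0.113, adjusted p = 0.0237), a receptor for mitochondria, NBR1 (-0.23 ± 0.0763, adjusted p = 0.0355) and TEX264 (-0.32 ± 0.105, adjusted p = 0.037).

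Genes of nutrient sensing at the lysosome, where mTORC1 is switched on and holds TFEB in the cytoplasm, had 1 of 34 higher at 4 h and 3 lower at 24 h. These shares were below or close to those of all genes. CASTOR2, a relative of the arginine sensor CASTOR1, was the higher one (0.34 ± 0.0833, adjusted p = 0.00826). FLCN (-0.40 ± 0.086, adjusted p = 0.00155) and RRAGC (-0.40 ± 0.0855, adjusted p = 0.00174), which act together on TFEB and TFE3, fell at 24 h with NPRL2 (-0.35 ± 0.108, adjusted p = 0.0268), a subunit of the complex that restrains mTORC1. Of 25 genes of fusion between endosomes and lysosomes, 2 were higher at 4 h, VPS18 among them (0.28 ± 0.0773, adjusted p = 0.021), and none was called at 24 h by edgeR (6 at an unadjusted p under 0.05).

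Among 8 tested relatives and partners of TFEB, FOXO4 rose at 4 h (0.56 ± 0.134, adjusted p = 0.00758) and fell at 24 h (-0.41 ± 0.135, adjusted p = 0.0342), while FOXO1 rose at 24 h (0.51 ± 0.141, adjusted p = 0.0133). PPARGC1A, a coactivator and a target of TFEB, was a very low gene at 0.425 ± 0.0444 CPM with thrombin at 24 h and 1.63 ± 0.217 CPM in control (-1.93 ± 0.474, adjusted p = 0.00528). Of 6 tested cystatins and other inhibitors of cathepsins, CST3, a secreted inhibitor of cysteine cathepsins, averaged 443 ± 65.5 CPM with thrombin at 24 h and 621 ± 34.0 CPM in control (-0.49 ± 0.129, adjusted p = 0.0106). CSTB (-0.32 ± 0.0904, adjusted p = 0.0158) and SERPINB1 (-0.39 ± 0.122, adjusted p = 0.0277) also fell at 24 h, and SERPINB6 fell at 4 h (-0.32 ± 0.0819, adjusted p = 0.0118). At 48 h, where edgeR called no gene of the whole table, none of these lists had a call.

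**Figure D5:**
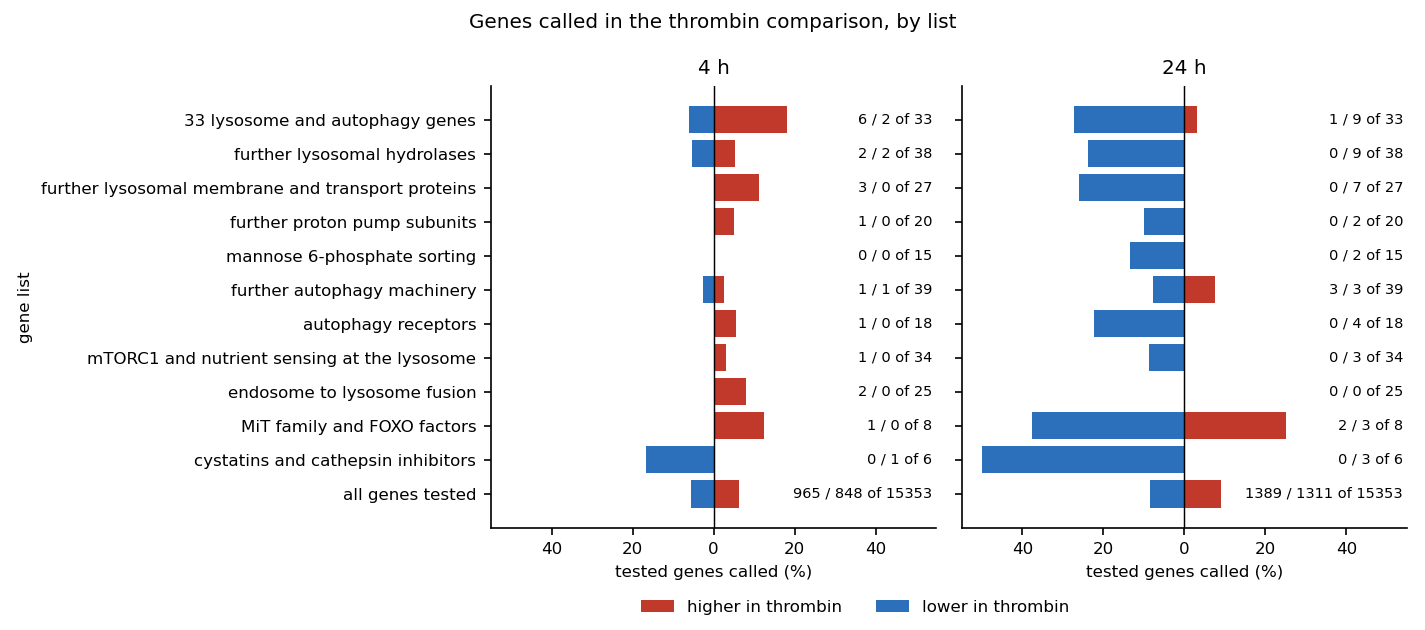
Percentage of tested genes called higher (red, right of 0) or lower (blue, left of 0) with thrombin at 4 h and at 24 h for each list, with the numbers higher, lower and tested printed beside the bars. The 33 genes have 9 lower at 24 h, the further hydrolases 9 of 38 and the further membrane proteins 7 of 27, and the bottom bars give all 15353 genes.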

How the data were processed

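Poly(A)-enriched RNA of LX-2 cells was sequenced in 18 libraries. The deposited values were raw read counts per gene symbol, whole numbers with no normalization by the authors. The submitters' processing notes list GRCh38 (hg38) and, with no order or role, SAMtools 1.21, DESeq2, cutadapt 4.9 and Bowtie2 2.5.4. The counter, annotation and strand setting are not given in the sources used here. All columns were matched to libraries by name. Counts were tested with edgeR 4.0.16 (R 4.3.3, limma 3.58.1) after filterByExpr (minimum count 10, minimum total 15) and TMM scaling, in 1 quasi-likelihood fit (robust) of 6 group means with 12 residual degrees of freedom and a common biological coefficient of variation of 9.07%. Tests were two-sided, adjusted p-values (Benjamini-Hochberg) cover all 15353 genes tested, and fold changes are thrombin over control, and each SE follows from the estimate and the F value of its test. CPM levels are TMM-scaled, in library order 12, 13, 14. Depth limits precision at low genes such as CTSS, CTSK and TFEB.

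The 33 genes and the lists were chosen with earlier results of these data known. Genes called in a thrombin comparison are given in every library, and up to 4 genes per list by smallest adjusted p, plus named relatives of TFEB and MAP1LC3B. Some genes this rule names are not reported here. Exon lengths, overlaps and shared 50-base stretches came from GENCODE 29, and coordinates and promoters from RefSeq GRCh38.p14. Alternatives were RLE size factors, no filter, DESeq2 1.42.0, a replicate block, libraries of 1 time alone, leaving out each library, and leaving out all libraries numbered 12. The code was tested on simulated counts. Replicates of a group differed by more than counting noise.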

Additional observations from a re-analysis of the deposited data

Results flagged for a closer look

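With groups as labelled, the thrombin effect differed between times, by the test of the difference itself, for 14 of the 33 genes between 4 h and 24 h. On the log2 scale, the effect at 24 h minus that at 4 h was 1.61 ± 0.19 (SE) for CTSL and 0.53 ± 0.105 for CTSB. It was negative for 12 genes: -2.25 ± 0.289 for CTSS, -1.28 ± 0.121 for TPP1, -0.91 ± 0.272 for TFEB, -0.90 ± 0.119 for NEU1, -0.81 ± 0.15 for GABARAPL1, -0.75 ± 0.148 for CTSF, -0.62 ± 0.161 for WIPI1, -0.54 ± 0.129 for SQSTM1, -0.49 ± 0.115 for ATP6AP1, -0.41 ± 0.154 for MCOLN1, -0.36 ± 0.118 for ATG9A and -0.33 ± 0.125 for CTSD. The adjusted p ran from 1.7e-08 (TPP1) to 0.0475 (CTSD), and the background was 28.0% of all genes tested. The calls of CTSD, MCOLN1 and ATG9A were each lost without thrombin library 13 or 14 of 4 h, thrombin library 14 of 24 h, control library 14 of 4 h, or control library 12 or 13 of 24 h. CTSD and MCOLN1 were also lost without thrombin library 12 of 24 h or control library 13 of 4 h, MCOLN1 without control library 12 of 4 h, and TFEB without thrombin library 14 or control library 12 of 24 h.

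Between 24 h and 48 h the effect differed for 8 genes, against 13.8% of all genes. The effect at 48 h minus that at 24 h was 1.70 ± 0.273 for CTSS, 1.11 ± 0.121 for TPP1, 0.76 ± 0.119 for NEU1, 0.62 ± 0.149 for CTSF, 0.60 ± 0.129 for SQSTM1, 0.60 ± 0.16 for WIPI1, 0.49 ± 0.125 for CTSD and -0.58 ± 0.19 for CTSL. The adjusted p ran from 5.12e-07 (TPP1) to 0.0454 (CTSL), and CTSL was lost without library 13 or 14 of thrombin at 24 h, 12 or 13 of control at 24 h, 12 or 13 of thrombin at 48 h, or 12 or 14 of control at 48 h.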

How the results depend on the processing

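No estimate for a single gene changed sign among those called. With all libraries numbered 12 left out, 11 members were higher at 4 h in place of 6 and 4 lower in place of 2. Members higher at 24 h were then 3 in place of 1. A higher signed effect at 24 h than at 4 h was called for 4 members in place of 2. Members lower with thrombin at 48 h than at 24 h were 5 in place of 2. DESeq2 gave 3 higher at 24 h (all genes 1486, against 1389 by edgeR). Without a filter on low counts, 1 gene was lower with thrombin at 48 h than at 24 h, and 1 (CTSL) was lower with thrombin at 24 h than in control at 4 h. Same-numbered thrombin and control libraries of the same time did not deviate together (correlations of deviations from -0.0931 to 0.0574). Between times within a treatment the correlations ran from -0.05 to 0.275, the highest for number 12 of thrombin at 24 h against 4 h. The numbers were not taken as pairs in any comparison, and the replicate block was an alternative. With the replicate block, 1 member was lower with thrombin at 48 h than at 24 h. Members lower at 24 h were 8 without HEXA, and those with a lower signed effect at 24 h than at 4 h were 10. Counts over all genes without the libraries numbered 12, without the filter or with the replicate block are not reported here. The changes under these settings are thus not set against the whole table.

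Leaving out each library in turn gave these counts. At 4 h 3 to 10 members were higher and 2 to 4 lower, while over all genes tested 425 to 1283 were higher and 415 to 1114 lower. At 24 h 1 was higher in each case and 5 to 8 were lower (all genes 913 to 1283 and 785 to 1206). At 48 h there were 0 (all genes 0 higher and 0 to 1 lower). With its sign counted, the effect at 24 h was higher than that at 4 h for 2 to 4 and lower for 8 to 13. Over all genes these counts were 1670 to 2306 and 1800 to 2404. The signed effect at 48 h was higher than that at 24 h for 7 to 9 and lower for 0 to 1 (all genes 732 to 1150 and 733 to 1137). Control at 24 h against 4 h gave 5 to 9 higher and 1 lower (all genes 702 to 1190 and 584 to 1124). Control at 48 h against 24 h gave 0 higher and 2 to 6 lower (all genes 96 to 575 and 118 to 560). Thrombin at 24 h against 4 h gave 2 to 3 higher and 3 to 8 lower (all genes 750 to 1432 and 634 to 1538). Thrombin at 48 h against 24 h gave 4 higher and 1 to 2 lower (all genes 341 to 591 and 504 to 806). Thrombin at 4 h against control at 24 h gave 0 (all genes 0 to 3 higher and 0 to 4 lower). Thrombin at 24 h against control at 4 h gave 0 to 1 in each direction (all genes 230 to 398 higher and 94 to 148 lower). Calls kept under all 12 alternatives were CTSL, CTSS and TPP1 at both times, CTSB and GABARAPL1 at 4 h, and NEU1, CTSF and WIPI1 at 24 h. The cause of the lost calls was not tested.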
